A study of Homo sapiens with 12 samples.

Results

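Disulfiram and thalidomide, each given alone to Huh7 cells, were compared directly, gene by gene. Huh7 is an established line of human hepatocellular carcinoma cells. The comparison took 6 of the 12 RNA libraries of the study, 3 from cells given disulfiram and 3 from cells given thalidomide. Another 3 libraries came from cells given the solvent DMSO (control) and 3 from cells given both drugs (combination). Genes were kept where at least 3 of the 6 single-drug libraries held a TPM (a share of all transcripts scaled by gene length) of at least 1. That left 14433 of the 59191 features in the table. Numbers follow the initials of the drugs in the column names, but no unit, length of treatment or read depth is given in the sources used here. The doses are therefore not matched in any known sense, and the differences below set these 2 treatments side by side, not the potency of the drugs. The labels describe preparation of tumour tissue for droplet single-cell sequencing, which does not match a table of 12 cell line libraries, so the library preparation and its strand are not known. No label says that the 3 libraries of a group are separate cultures, so the p-values below speak of the spread among libraries, which may be technical.

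Disulfiram inhibits aldehyde dehydrogenases and is used in alcohol dependence. Its metabolite chelates copper, and the copper complex is known to bind NPLOC4, an adaptor that brings ubiquitinated proteins to the p97 segregase. Cells whose protein handling fails commonly induce heat shock chaperones through HSF1, and cells loaded with zinc or copper induce metallothioneins through MTF1. Thalidomide acts through cereblon, which picks substrates for a CUL4 ubiquitin ligase, and directs it to zinc finger proteins that it would not otherwise mark. That action is on proteins, so its mark on messenger RNA is indirect. Hepatocyte-derived cells such as Huh7 secrete plasma proteins, make cholesterol and fatty acids under the SREBP factors, and express the iron hormone hepcidin under BMP and SMAD signalling.

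A level of 1 TPM was reached by 13693 to 15038 genes, depending on the library. The second disulfiram library stood apart from the others of its group. Its deviation from the group mean rose with the GC content of genes (Spearman's rho 0.63 over 14163 genes), against -0.51 and -0.32 in the other disulfiram libraries. In the thalidomide libraries the same value ran from -0.41 to 0.50, and for the difference between the drugs it was -0.10. For thalidomide minus control it was 0.21 and for disulfiram minus control 0.0003. These are descriptions across genes, which are not replicates. All 12 markers of the hepatocyte lineage were expressed, with summed TPM of 9393 to 10492 with disulfiram and 10708 to 13021 with thalidomide. Of the leukocyte markers, 3 of 20 had a mean TPM of at least 1 (CD3D, CD14 and LYZ), and 13 of 20 were below 0.1. Their summed TPM was 76.9 to 151 with disulfiram and 123 to 172 with thalidomide. Of the endothelial markers, 2 of 14 (PECAM1 and ESAM) reached 1, with sums of 7.29 to 11.8 with disulfiram and 3.30 to 3.88 with thalidomide, and both were higher with disulfiram. Of the leukocyte markers CD3D (1.86) and LYZ (1.14) were higher with disulfiram and CD14 (-0.86) lower, a call that CD14 lost in 11 of 24 alternatives. Fibroblast and stellate markers (6 of 14 at 1 or more) summed to 64.1 to 77.9 and 60.1 to 90.1.

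Past the threshold, 3 lists had the largest shares higher with disulfiram. They were metallothioneins and zinc export (8 of 11), NF-kB genes (15 of 21) and interferon response genes (11 of 18). The lists with the largest shares lower were cholesterol synthesis (19 of 26), secreted liver proteins (24 of 40) and fatty acid synthesis (12 of 22). In limma's moderated test with Benjamini-Hochberg adjustment, 2632 genes (18.2% of those tested) differed at an adjusted p below 0.05. Of these, 1817 (12.6%) were higher with disulfiram and 815 (5.65%) lower, and 314 and 112 differed at least 2-fold on the log2(TPM + 1) scale, on which all differences below are given. The libraries of the drugs did not overlap in 2595 of the 2632, and in 4729 of all 14433 genes tested. The split between higher and lower depended on the scaling. As deposited, the median of all genes lay 0.12 above 0. With median-of-ratios scaling that median was -0.02 and the counts were 972 higher and 1308 lower. They were 1164 and 1187 after quantile normalization and 1676 and 1711 after a correction for GC content. In all 4 versions 889 genes were higher and 780 lower. No gene past the threshold passed it in the opposite direction under any of the 24 alternatives, and changes of sign short of the threshold were not counted. Leaving out the first or the third disulfiram library reduced the count to 1724 and 1612, and without the second it was 2832.

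**Figure D1:**
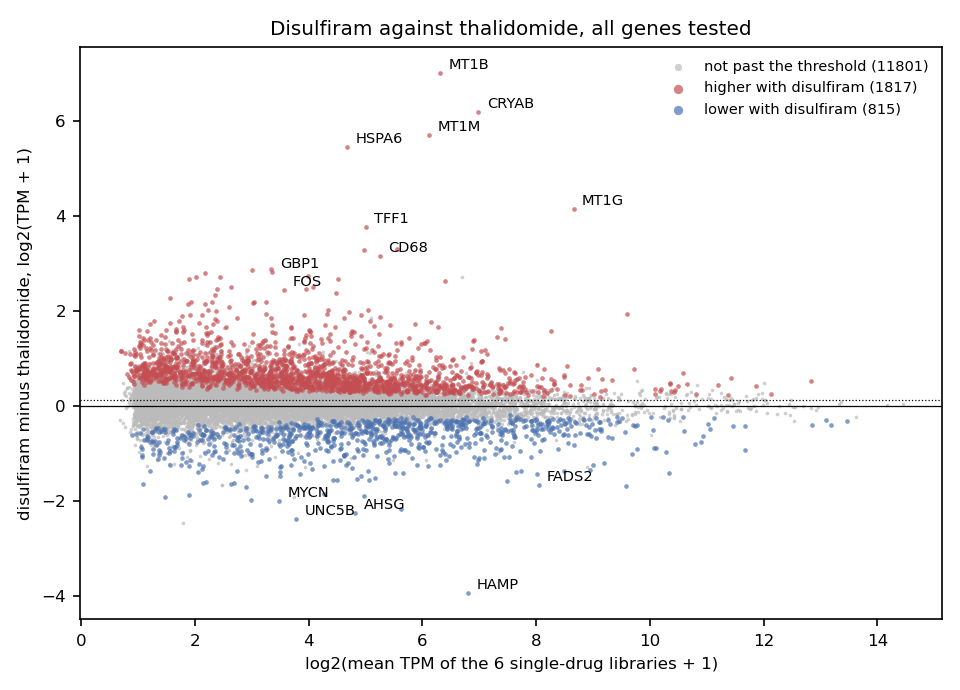
Difference between disulfiram and thalidomide (y axis, log2(TPM + 1)) against the level of each gene (x axis, log2 of the mean TPM of the 6 single-drug libraries plus 1) for 14433 genes. Red points (1817) were higher with disulfiram and blue points (815) lower at an adjusted p below 0.05, and the dotted line marks the median of all genes, 0.12. MT1B, CRYAB, MT1M and HSPA6 lie more than 5 units above 0, and HAMP lies farthest below at -3.94.

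Metallothioneins, small cysteine-rich proteins that bind zinc and copper, held the largest differences. MT1B (hg38 chr16:56651899-56653204) was at 155, 182 and 134 TPM with disulfiram, at 0.78, 0 and 0 with thalidomide, and listed at 0 in all 3 controls. MT1M (chr16:56632233-56633986) was at 179, 124 and 102 TPM with disulfiram and 0.75, 1.07 and 3.53 with thalidomide, a difference of 5.70 ± 0.31 (SE, 3 libraries a group, adjusted p = 9.13e-07). MT1G was at 1058, 602 and 633 against 40.3, 28.6 and 58.8 TPM (4.15 ± 0.26, adjusted p = 2.88e-06). In each of these genes every disulfiram library lay far above every thalidomide library, though the rule that named them asked for libraries that do not overlap. The thalidomide libraries spread around the controls (1.85, 2.15 and 2.94 TPM for MT1M and 32.2, 41.2 and 52.1 for MT1G). MT1A (2.64 ± 0.29) and the pseudogene MT1L (3.30 ± 0.26) were higher too. Of 13 genes listed as metallothioneins and zinc export, 11 were tested, 8 were higher with disulfiram and 0 lower. The median difference was 1.65 against 0.12 over all genes. The 8 were all the metallothioneins tested from this list. SLC30A1 (0.71), MTF1 (0.37) and SLC30A10 (-0.02), named after their values were seen, did not pass. MT1B entered the test through its disulfiram libraries alone. Metallothionein genes are near-identical copies on chromosome 16, so the reads of single members cannot be assigned with certainty.

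The 250 bases before the RefSeq start of MT1B are shown because metal response elements are the sites through which MTF1 acts on this family. The window lies at chr16:56651636-56651885 on the plus strand (GRCh38.p14), before the annotated gene. Capitals mark the letters TGCNCNC on either strand, found 5 times, and no capital stretch overlapped another motif searched here. These letters are looser than the core of the element, which has A or G after TGC. The stretches TGCTCCC and GGGAGCA therefore match the letters searched but not that core.
MT1B: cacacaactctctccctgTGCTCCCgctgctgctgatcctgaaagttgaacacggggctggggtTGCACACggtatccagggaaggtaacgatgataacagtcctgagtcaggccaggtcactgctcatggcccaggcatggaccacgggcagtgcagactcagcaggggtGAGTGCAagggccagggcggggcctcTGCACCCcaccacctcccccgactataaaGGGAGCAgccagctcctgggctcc
At least 5 matches to the looser letters stood in 53 of 9965 windows of tested genes (0.532%), while at least 1 stood in 56.6%. A match alone is therefore common, and it describes letters, not a site in use.

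Heat shock chaperones were the other group with differences above 5. CRYAB, a small heat shock protein of the lens and muscle, was at 151, 360.3 and 236 TPM with disulfiram against 2.96, 1.86 and 1.94 with thalidomide (6.19 ± 0.26, adjusted p = 7.34e-08). HSPA6, an HSP70 made almost only under stress, was at 43.9, 58.5 and 44 against 0.19, 0.09 and 0.12 TPM (5.45 ± 0.18). With thalidomide both genes overlapped the controls, which held 2.03, 2.89 and 1.49 TPM of CRYAB and 0.13, 0.07 and 0.11 of HSPA6. HSPA1A, the major inducible HSP70, was at 245, 293 and 213 with disulfiram and 103, 53 and 89.1 with thalidomide (1.64 ± 0.23), though its reads cannot be told from those of HSPA1B. HSPA1L was higher by 1.33. In all, 9 of 25 tested members were higher and 1 lower with disulfiram (median 0.24), and 2 of them, HSPA6 and HSPA1L, were tested only through their disulfiram libraries, so that they had to differ. The lower gene was HSP90AB1 (-0.22), a constitutive HSP90 named after its value was seen. Under median-of-ratios scaling 8 were higher and 3 lower.

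HSPA6 is shown because its promoter holds a heat shock element of 3 units, written GAANNTTCNNGAA or TTCNNGAANNTTC (each searched on both strands). The window is chr1:161524290-161524539, plus strand, GRCh38.p14, and ends at the base before the annotated gene. Capitals mark the element, 74 bases before the start.
HSPA6: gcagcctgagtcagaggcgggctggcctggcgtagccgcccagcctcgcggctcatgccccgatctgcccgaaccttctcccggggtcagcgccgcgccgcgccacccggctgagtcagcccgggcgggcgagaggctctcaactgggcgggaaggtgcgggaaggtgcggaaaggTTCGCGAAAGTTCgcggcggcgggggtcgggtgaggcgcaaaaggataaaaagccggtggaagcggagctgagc
The element stood in 27 of 9965 windows of tested genes (0.271%) and in 4 of the 22 heat shock chaperone genes that had a window. Among genes higher with disulfiram it stood in 4 of 1320 windows, and among genes lower with disulfiram in 0 of 583.

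Other genes among the largest differences were CD68, TFF1, CIDEC and ALOXE3. CD68, a lysosomal membrane protein best known from macrophages, was at 68.8, 66.5 and 67.4 TPM with disulfiram and 8.27, 7.27 and 4.98 with thalidomide (3.15 ± 0.27, adjusted p = 2.75e-05). Markers of leukocytes are given above, with 13 of 20 below 0.1, and their part in CD68 was not tested. TFF1, a secreted trefoil peptide of mucosa, was at 63.6, 50.4 and 60.6 against 7.35, 1.48 and 2.86 TPM (3.77 ± 0.32). CIDEC, a lipid droplet protein, was at 31.1, 25.5 and 23.4 against 3.83, 3.56 and 2.16 (2.74 ± 0.36), and ALOXE3, a lipoxygenase of skin, at 5.42, 9.07 and 6.24 against 0.32, 0.02 and 0.01 (2.81 ± 0.22). The rule that named these 4 genes asked for disulfiram and thalidomide libraries that do not overlap, so their separation is no result of its own. ALOXE3 was tested only through its disulfiram libraries, so that it had to differ. SNORD3A, the U3 small nucleolar RNA, was at 55.2, 55.4 and 50.1 against 9.15, 11.3 and 0.37 TPM, but it lost its call in 8 of 24 alternatives, among them leaving out any single disulfiram library (adjusted p = 0.0335 with all). CTSB, a lysosomal protease, and MCOLN1, a lysosomal calcium channel, were higher by 0.71 and 0.81. Of 30 autophagy and lysosome genes 12 were higher and 0 lower (median 0.26), and 6 were higher under median-of-ratios scaling.

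**Figure D2:**
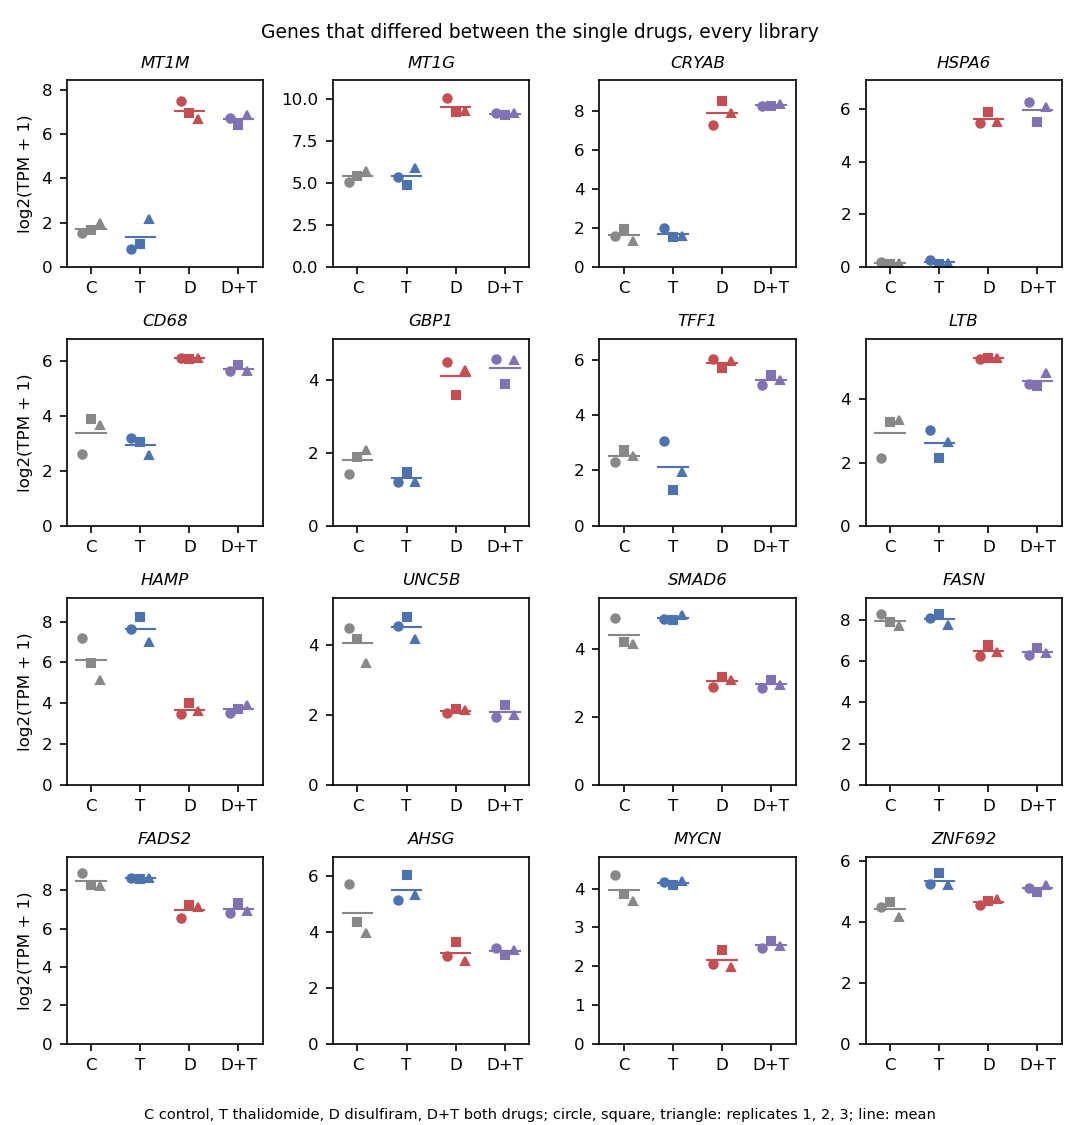
Expression in every library (y axis, log2(TPM + 1)) of 16 genes that differed between the drugs, by group (x axis), with symbols for replicates 1 to 3 and a line at the mean of 3. The first 8 panels show genes with disulfiram libraries above all thalidomide libraries, such as MT1M (102 to 179 against 0.75 to 3.53 TPM), and the last 8 show genes with disulfiram below, such as HAMP (9.95 to 14.9 against 126 to 304 TPM).

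Of the tested interferon response, antigen presentation and NF-kB genes, 11 of 18, 9 of 17 and 15 of 21 were higher with disulfiram than with thalidomide. GBP1, an interferon-induced GTPase, was at 21.5, 11 and 18.4 TPM with disulfiram and 1.32, 1.79 and 1.31 with thalidomide (2.82 ± 0.26, adjusted p = 4.91e-05). IRF9, the DNA-binding subunit of the interferon-activated factor ISGF3, was at 30.9, 26.7 and 34.4 against 6.24, 7.64 and 8.05 (1.93 ± 0.14). OAS3 and OAS1, sensors of double-stranded RNA, were higher by 1.59 and 1.50. In all 4 genes the thalidomide libraries overlapped the controls, and no disulfiram library did. Of 30 interferon response genes 18 were tested, 11 were higher and 0 lower (median 0.62), and 10 remained higher with median-of-ratios scaling. Among antigen presentation genes, TAP1, the peptide transporter, was at 23.2, 20.4 and 23.6 against 10.7, 10.7 and 9.47 TPM (1.05 ± 0.11), and the immunoproteasome subunit PSMB9 was higher by 1.15. TAPBP, the tapasin that loads class I molecules, was higher by 0.84. In this list 9 of 17 tested members were higher and 1 lower, and the lower gene was the chaperone CALR (-0.51), named after its value was seen. The letters GAAANNGAAA of an interferon response element stood in 8 of 13 interferon response genes with a promoter window, against 2.10% of the windows of tested genes.

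Among NF-kB genes, LTB, which encodes lymphotoxin beta, was at 37.7, 38.7 and 38.3 TPM with disulfiram and 7.21, 3.43 and 5.25 with thalidomide (2.68 ± 0.29, adjusted p = 0.000138). TNFAIP3, the ubiquitin-editing enzyme that restrains NF-kB, was at 23.1, 18.5 and 27.1 against 8.33, 9.46 and 8.63 (1.27 ± 0.13). The chemokine CXCL3 and the inhibitor of apoptosis BIRC3 were higher by 1.35 and 1.32. For LTB and TNFAIP3 the lowest disulfiram library lay above the highest thalidomide library by more than the range within either group. Of 25 listed genes 21 were tested, 15 were higher and 0 lower (median 0.59), and 3 (BIRC3, TRAF1 and REL) were tested only through the disulfiram libraries. With median-of-ratios scaling 8 were higher and 0 lower.

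In the list of immediate early and MAPK feedback genes 14 of 24 were higher with disulfiram. Immediate early genes are transcribed within minutes of a growth factor or stress signal. FOSB was at 8.11, 7.3 and 8.01 TPM with disulfiram and 0.87, 0.51 and 0.42 with thalidomide (2.47 ± 0.19). FOSL1, another AP-1 subunit, was at 8.19, 8.04 and 6.13 against 1.19, 0.34 and 0.58 (2.33 ± 0.24, adjusted p = 0.0001). DUSP5, a phosphatase that removes the activating phosphates of nuclear ERK, was at 59.8, 48 and 48.1 against 16.3, 10.6 and 9.67 (2.03 ± 0.24). In all 3 genes the thalidomide and control libraries overlapped (FOSL1 controls 0.96, 2.01 and 2.74 TPM), and every disulfiram library lay above both. In all, 3 members were lower, the median was 0.75, and FOSB was tested only through its disulfiram libraries, so that it had to differ. The 3 lower genes, ETV4 (-0.78), SPRY4 (-0.73) and ETV5 (-0.49), were named after their values were seen and are targets and feedback regulators of receptor tyrosine kinase signalling. HBEGF and AREG, ligands of the EGF receptor, were higher by 2.00 and 1.26. They were listed among angiogenic growth factors, of which 8 of 16 tested were higher and 3 lower (5 higher without disulfiram library 3). The shares over all genes were 12.6% higher and 5.65% lower.

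Glycolysis and hypoxia genes were higher with disulfiram in 17 of 33 and lower in 1. In 1 of the 33 all libraries of 1 drug lay below 1 TPM, so that it had to differ. Among genes detected with both drugs 16 were higher. SLC2A1, the glucose transporter GLUT1, was at 79, 95.3 and 115 TPM with disulfiram and 41.5, 40.5 and 27.8 with thalidomide (1.38 ± 0.21, adjusted p = 0.00114). ADM, which encodes the vasodilator adrenomedullin, was at 77.9, 96.2 and 91.9 against 33, 42 and 31.5 (1.30 ± 0.15), and ANKRD37, a target of hypoxia-inducible factor, was higher by 1.61. The third thalidomide library was the lowest of its group for SLC2A1 and ADM, and no disulfiram library overlapped. ENO2 was at 52.9, 64.5 and 75.7 against 25.4, 38.7 and 15.2 TPM (1.33 ± 0.36, adjusted p = 0.0225), and it lost its call without disulfiram library 3 or thalidomide library 1 or 3. With 1 library left out 13 to 19 were higher, and with median-of-ratios scaling 15 were higher and 2 lower, with a median of 0.62 as deposited. The lower gene was GAPDH (-0.39), named after its value was seen.

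Iron handling genes included the largest difference in the other direction. HAMP, which encodes hepcidin, the hormone that closes iron export, was at 9.95, 14.9 and 11.2 TPM with disulfiram and 197, 304 and 126 with thalidomide (-3.94 ± 0.42, adjusted p = 0.000126). The controls spread widely, at 146, 61.7 and 34.2 TPM, so replicates 2 and 3 lay below every thalidomide library and replicate 1 among them. By limma, thalidomide differed from control by 1.52 ± 0.42 (adjusted p = 0.612), which did not pass the threshold. SMAD6, an inhibitor and target of BMP signalling, was at 6.33, 8.15 and 7.53 with disulfiram and 28.7, 28 and 31.1 with thalidomide (-1.86 ± 0.18). ATOH8, a transcription factor induced by BMP, was at 1.62, 1.46 and 2.97 against 10.3, 7.37 and 7.32 (-1.65 ± 0.27), and ID3 and ID1, direct BMP targets, differed by -1.20 and -0.79. TMPRSS6, the protease that damps BMP signalling at the hepatocyte surface, differed by -1.15. SMAD7, another BMP target, did not pass (-0.35). Of 19 tested iron handling genes 9 were lower and 2 higher with disulfiram (median -0.32), and 1 was higher without disulfiram library 1 or 3 and 4 without the second. The higher genes, named after their values were seen, were the ligand BMP6 (0.81) and the receptor partner HFE (0.50). TF, the iron carrier transferrin, was at 659.7, 946 and 884 against 1219.5, 2281 and 1502 TPM (adjusted p = 0.0301) and lost its call when any of 4 single-drug libraries was left out (disulfiram 1 or 3, thalidomide 2 or 3).

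A stretch of 26 bases around the BMP response element core GGCGCC before the start of HAMP is shown at chr19:35282413-35282438 (plus strand, GRCh38.p14), with the core, 105 bases before the RefSeq start, in capitals. GENCODE 29 also places a longer transcript of HAMP over this stretch.
HAMP: ccgccttttcGGCGCCaccaccttct
GGCGCC stood in 26.1% of the 9965 windows of tested genes, in 21.7% of those of genes higher and 29.5% of those of genes lower with disulfiram, so its presence alone sets no gene apart.

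Of cholesterol and fatty acid synthesis genes, 19 of 26 and 12 of 22 were lower with disulfiram. INSIG1, the sterol-sensing anchor of SREBP, was at 14.8, 14 and 15.1 TPM with disulfiram and 34.3, 42.8 and 35.9 with thalidomide (-1.30 ± 0.18, adjusted p = 0.000668). DHCR7 and FDPS, enzymes of the sterol and isoprenoid pathway, differed by -1.07 and -1.01. Of 26 tested cholesterol genes 19 were lower and 0 higher (median -0.61), and with median-of-ratios scaling 21 were lower. FADS2, a fatty acid desaturase, was at 94.3, 150.4 and 139 against 402, 391 and 404 TPM (-1.66 ± 0.20, adjusted p = 0.000253). FASN, fatty acid synthase, was at 74.8, 108 and 86.8 against 273, 315 and 219 (-1.57 ± 0.18), and GPAM, the first enzyme of triglyceride synthesis, differed by -1.62. The desaturase SCD differed by -1.24. Of 22 tested members 12 were lower and 0 higher (median -0.53). Thalidomide libraries of FADS2 and FASN lay within or close to the range of the controls (311, 237 and 208 TPM for FASN), while every disulfiram library lay below both groups.

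Of the tested secreted liver proteins, 24 of 40 were lower with disulfiram. AHSG, which encodes fetuin-A, an inhibitor of mineral deposition, was at 7.84, 11.3 and 6.8 TPM with disulfiram and 33.9, 64.7 and 38.9 with thalidomide (-2.25 ± 0.37, adjusted p = 0.00176). APOB, the backbone of secreted lipoproteins, was at 11.3, 8.67 and 10.6 against 23.5, 29.2 and 46.6 (-1.56 ± 0.28), and ITIH2, a plasma protein that binds hyaluronan, differed by -1.57. AFP, the fetal counterpart of albumin, was at 169.9, 117 and 114 against 225, 536 and 376 TPM (-1.43 ± 0.36, adjusted p = 0.018), and it lost its call without disulfiram library 3 or thalidomide library 2 or 3. Albumin (ALB) was at 940.1, 586 and 952 against 959, 1362 and 1433 TPM, and its difference of -0.61 ± 0.23 did not pass (adjusted p = 0.0848). Of 49 listed genes 40 were tested, 24 were lower and 1 higher (median -0.76). Among transcription factors of hepatocytes, FOXA1 (-1.14) and CEBPA (-0.91) were lower and CEBPB (0.74) and NR5A2 (0.80) higher with disulfiram, of 22 tested, which is near the shares over all genes of 12.6% higher and 5.65% lower. With median-of-ratios scaling 4 were lower and with the GC correction 6. NR5A2 lost its call without disulfiram library 1 or 3 or thalidomide library 1.

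Endoplasmic reticulum chaperones were lower with disulfiram in 13 of 25, and ATF4 targets divided. PDIA4, a disulfide isomerase, was at 101, 126 and 105 TPM with disulfiram and 237, 208 and 258 with thalidomide (-1.08 ± 0.11, adjusted p = 9.66e-05). SDF2L1, HSP90B1 and HYOU1, further chaperones of that compartment, differed by -1.02, -0.90 and -0.81. Of 25 tested members 13 were lower and 1 higher (median -0.32). PHGDH, the first enzyme of serine synthesis, was at 111, 119.5 and 99.8 against 244, 323 and 304 TPM (-1.39 ± 0.11, adjusted p = 1.24e-05). ATF3, a stress-induced repressor, was at 50.2, 41.6 and 38.7 against 12.3, 19.9 and 13.6 TPM (1.47 ± 0.18). GDF15, a stress cytokine, and DDIT4, an inhibitor of mTORC1, were higher by 1.20 and 1.18. The 26 tested ATF4 targets thus divided into 8 lower and 7 higher, with a median of -0.30, and after the GC correction 15 were lower and 7 higher. ATF4 itself was at 314, 346 and 285 with disulfiram and 351, 456 and 427 with thalidomide (adjusted p = 0.0375). The controls, at 436, 542 and 535 TPM, overlapped thalidomide and lay above disulfiram. ATF4 lost its call in 9 of 24 alternatives, among them leaving out disulfiram library 1 or 3, thalidomide library 2 or 3 or combination library 3. Among cytosolic aminoacyl-tRNA synthetases, which charge transfer RNAs, 5 of 20 were lower and 1 higher, with YARS at 71.7, 86.7 and 71.3 against 111, 119.8 and 134 TPM (-0.66 ± 0.10) and AARS differing by -0.60. Over all genes 5.65% were lower and 12.6% higher.

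Other genes far lower with disulfiram were UNC5B, MYCN and SCNN1A. UNC5B, a netrin receptor, was at 3.14, 3.5 and 3.43 TPM with disulfiram and 22.2, 27.1 and 17 with thalidomide (-2.39 ± 0.23, adjusted p = 6.82e-05). MYCN, a transcription factor of the MYC family, was at 3.18, 4.33 and 2.92 against 16.9, 16.2 and 17.3 (-2.00 ± 0.17), whereas MYC was at 27.8, 24.6 and 21.3 against 13.7, 9.78 and 13 (0.96 ± 0.24, adjusted p = 0.015). These family members differed in opposite directions, although MYC lost its call without disulfiram library 1 or thalidomide library 2. SCNN1A, a subunit of the epithelial sodium channel, was at 9.82, 12.9 and 13.6 against 49.3, 62.2 and 34.9 (-1.90 ± 0.25). RN7SL2, an RNA of the signal recognition particle with many copies, was at 259, 410.2 and 432 against 1124, 1286 and 1088 TPM (-1.70 ± 0.29). Its value depends on how non-polyadenylated RNA and copies were handled, which is not known. DNA replication genes were lower with disulfiram in 11 of 40 and higher in 0 (median -0.22), led by the helicase subunits MCM5 (-0.79), MCM7 (-0.62) and MCM6 (-0.58), and the count was 18 with median-of-ratios scaling, 21 with the GC correction, 5 without thalidomide library 3 and 7 without disulfiram library 3. MCM6 also lost its call without thalidomide library 3.

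**Figure D3:**
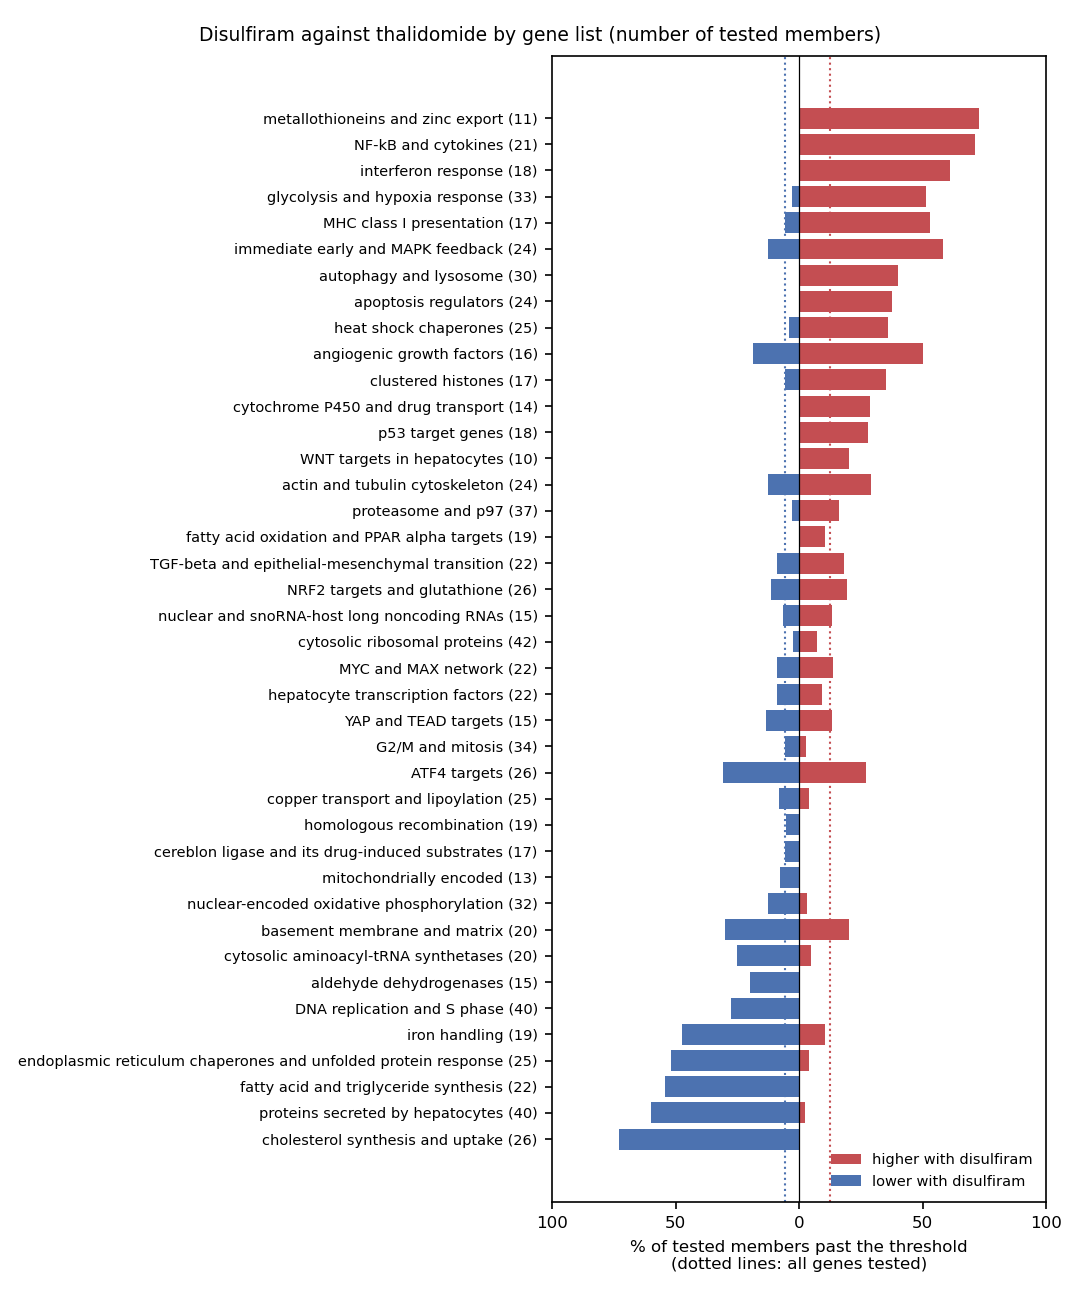
Share of the tested members of 40 gene lists (x axis, percent) that were higher (red, right) or lower (blue, left) with disulfiram at an adjusted p below 0.05, with the number tested in parentheses. Dotted lines mark the shares over all genes, 12.6% and 5.65%. The longest bars to the right are those of metallothioneins and zinc export (8 of 11 higher) and NF-kB (15 of 21 higher). To the left the longest is that of cholesterol synthesis (19 of 26 lower).

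The known targets of each drug were looked at in turn. ALDH2, the mitochondrial aldehyde dehydrogenase that disulfiram inhibits, was at 29.4, 30.5 and 28.6 TPM with disulfiram and 40.8, 52.2 and 46.2 with thalidomide (-0.63 ± 0.09, adjusted p = 0.000848), with controls at 46.8, 48.3 and 45.9. ALDH7A1 differed by -0.52, and ALDH1A1, at 474, 296 and 399.6 against 435, 565 and 510.5, did not pass (adjusted p = 0.172). Of 15 tested aldehyde dehydrogenase genes 3 were lower and 0 higher, against 5.65% lower over all genes, and 5 were lower with median-of-ratios scaling and 6 with the GC correction. The last of the 3 was ALDH4A1 (adjusted p = 0.0497), which lost its call in 18 of 24 alternatives, among them leaving out any single library other than combination libraries 2 and 3. NPLOC4 was at 60, 67.3 and 61.3 with disulfiram and 66.1, 58.5 and 65.7 with thalidomide, a difference of -0.01 ± 0.09 (adjusted p = 0.948). Of 37 genes of the proteasome and p97, 6 were higher and 1 lower, near the shares over all genes of 12.6% higher and 5.65% lower. The number higher was 0 with median-of-ratios scaling, 3 with the GC correction and 10 after quantile normalization. It was 2 without disulfiram library 1, 1 without disulfiram library 3 and 3 without thalidomide library 1. CRBN, the cereblon gene, was at 20.7, 9.76 and 15.8 with disulfiram, 11.7, 11.3 and 13.3 with thalidomide and 12.2, 10.7 and 9.37 in control, and the drugs did not differ past the threshold (0.27 ± 0.24, adjusted p = 0.472). Of 17 tested genes of the cereblon ligase and proteins it is known to degrade with such drugs, only ZNF692, a zinc finger protein, differed. This 1 lower gene of 17 is near the share over all genes of 5.65% lower, and 0 were higher, against 12.6%. ZNF692 was at 37.1, 48 and 36.2 TPM with thalidomide, 22.6, 24.6 and 25.9 with disulfiram and 21.4, 24.1 and 16.9 in control. All 3 thalidomide libraries lay above all disulfiram and control libraries (-0.70 ± 0.14 for disulfiram minus thalidomide, adjusted p = 0.00493), and the combination libraries, at 34, 31 and 35.9, also lay above both. By limma the thalidomide value against control was 0.93 ± 0.14, which did not pass (adjusted p = 0.153).

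Set against the controls separately, disulfiram gave all the calls. It differed from control in 1340 genes higher (9.28% of those tested) and 702 lower (4.86%). Thalidomide differed from control in 0 genes (0%) by limma at an adjusted p below 0.05 and in 848 genes at an unadjusted p below 0.05. With the first control library left out thalidomide had 26 calls, and it had 1 without thalidomide library 1 or without the second control. The gene nearest to the threshold was NID2, which encodes the basement membrane protein nidogen 2. NID2 was at 65.1, 59.9 and 64.8 TPM with thalidomide, 58.4, 56.9 and 61.4 with disulfiram and 94.6, 98.1 and 115 in control, with an adjusted p of 0.0581 for thalidomide and 0.000236 for disulfiram. Both drugs thus left NID2 below all controls, and they did not differ from each other past the threshold (-0.10 ± 0.09, adjusted p = 0.46). The calls for disulfiram against control numbered 1242 without the first control, 1329 without the third, 1331 without disulfiram library 1 and 1195 without disulfiram library 3. Both comparisons use the same 3 control libraries, so their values are given side by side and no agreement between them was tested. The median difference from control over the metallothionein and zinc export list was 1.31 with disulfiram and -0.16 with thalidomide. Over immediate early and MAPK feedback genes it was 0.47 and -0.18, over secreted liver proteins -0.58 and 0.16, and over cholesterol genes -0.56 and 0.07. ATF4 targets had negative medians with both drugs, -0.61 and -0.31, and so had tRNA synthetases, -0.43 and -0.24. Over all genes the medians were 0.09 and -0.03.

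**Figure D4:**
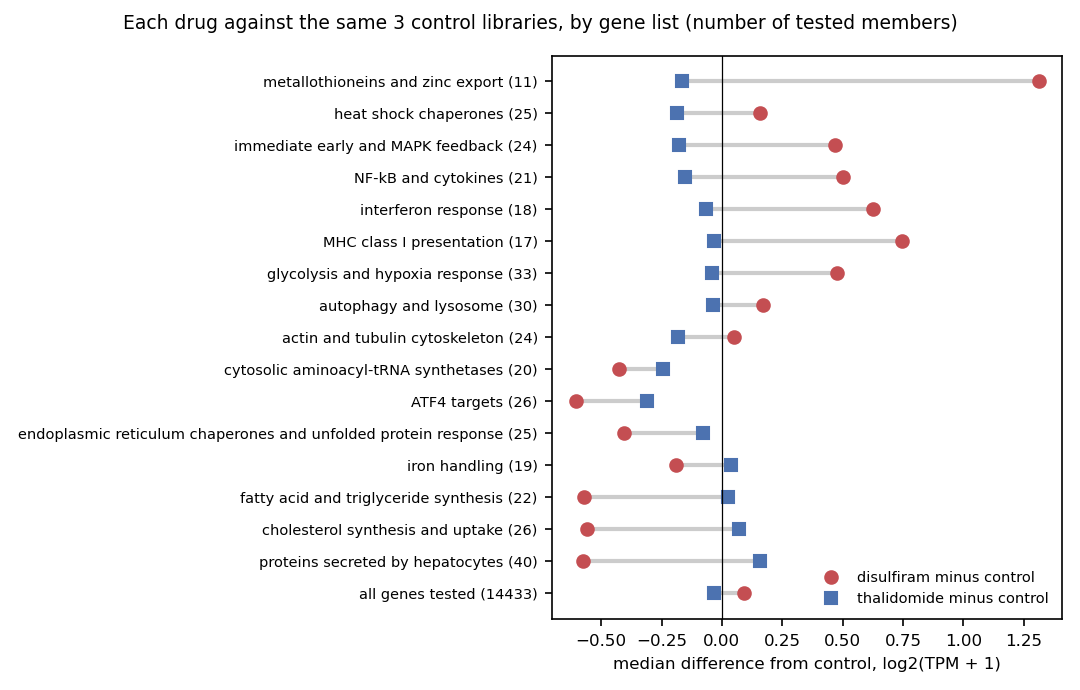
Median difference from control (x axis, log2(TPM + 1)) over the tested members of 16 gene lists and over all genes, for disulfiram (red circles) and thalidomide (blue squares), joined by a grey line. Both drugs are set against the same 3 control libraries. The points are farthest apart for metallothioneins and zinc export (1.31 and -0.16). They lie on the same side of 0 for ATF4 targets (-0.61 and -0.31).

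Genes that the drugs moved apart from control in opposite directions were of interest in the design. They were taken as genes that differed between the drugs and whose 3 control libraries all lay strictly between the 3 disulfiram and the 3 thalidomide libraries. There were 204 such genes with disulfiram high (1.41% of those tested) and 53 with thalidomide high (0.367%). The order was asked of genes already past the threshold between the drugs, so it is a description and no test. In 128 of the 257 disulfiram differed from control at an adjusted p below 0.05. Thalidomide reached an unadjusted p below 0.05 in 105 and an adjusted one in 0. The smaller of the 2 differences from control had a median of 0.21 and reached 0.5 in 15 genes. With disulfiram high, the median differences from control were 0.36 with disulfiram and -0.24 with thalidomide, and with thalidomide high they were -0.34 and 0.19. The number depended on scaling and on single libraries. Under median-of-ratios scaling 115 of the 257 kept this order, under the GC correction 164, and under both 101 (66 with disulfiram high and 35 with thalidomide high). Without the first control library 667 genes met the rule, without thalidomide library 2 459 and without thalidomide library 3 484, against 219 to 365 without any other single library. With a control, disulfiram or thalidomide library left out, the order is asked of fewer libraries. The number of tested genes in that order can then only stay or rise, so these counts are not like the 257.

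CAPN2 and NOV, described below, were tested only through their disulfiram libraries, so that the drugs had to differ in them. FOS, an AP-1 subunit, had the largest value of the smaller difference. It was at 19, 16.2 and 22.1 TPM with disulfiram, 5.38, 9.19 and 4.86 in control and 2.96, 2.86 and 2.26 with thalidomide. By limma disulfiram exceeded thalidomide by 2.44 ± 0.19 (adjusted p = 1.49e-05) and control by 1.46, and thalidomide lay -0.98 ± 0.19 from control (adjusted p = 0.33). CAPN2, a calcium-dependent protease, was at 9.18, 8.67 and 10.9 with disulfiram, 1.69, 1.75 and 2.73 in control and 0.74, 0.96 and 0.85 TPM with thalidomide. Its differences from control were 1.80 with disulfiram and -0.71 with thalidomide. NOV, a matricellular protein also called CCN3, was at 6.73, 3.73 and 4.63 with disulfiram, 0.87, 0.87 and 1.29 in control and 0.39, 0.27 and 0.34 with thalidomide. LARP6, which binds collagen messenger RNAs, was at 15.1, 16.3 and 14.7 with disulfiram, 8.01, 10.2 and 11.1 in control and 6.6, 6.42 and 5.53 with thalidomide. In FOS, CAPN2 and NOV the step to disulfiram was larger than the step to thalidomide, and in LARP6 they were about equal (0.61 and -0.58). The orphan receptor GPRC5B was at 95.5, 87.7 and 92.6 with disulfiram, 39.4, 62 and 67.9 in control and 36.9, 33.1 and 37.9 with thalidomide, with the first control near the thalidomide libraries. BAHCC1, a chromatin protein, the antisense RNA IGFL2-AS1 and the long noncoding RNA LINC01559 completed the 8 named, with differences from control of 0.87 and -0.56, 1.09 and -0.92, and 1.56 and -0.63. The strand of the reads is not known, so IGFL2-AS1 cannot be told from a gene on the other strand. GPRC5B and LINC01559 did not keep the order under median-of-ratios scaling, and the other 6 did.

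CAPN2 is shown because the 250 bases before its first RefSeq start hold 2 AP-1 sites, TGANTCA, the motif that FOS proteins bind. The window is chr1:223701347-223701596, plus strand, GRCh38.p14, and the sites in capitals lie 178 and 143 bases before the start.
CAPN2: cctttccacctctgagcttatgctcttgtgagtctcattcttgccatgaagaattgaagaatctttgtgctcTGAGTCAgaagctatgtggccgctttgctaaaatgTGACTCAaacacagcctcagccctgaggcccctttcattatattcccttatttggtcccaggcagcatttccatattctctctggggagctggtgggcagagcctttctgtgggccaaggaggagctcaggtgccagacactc
At least 2 such sites stood in 17 of 9965 windows of tested genes (0.171%) and at least 1 in 3.89%. The HSPA6 window shown above holds 2 as well. At least 1 stood in 0 of 17 windows of immediate early and MAPK feedback genes and in 3 of 6 of the metallothionein and zinc export list. At least 1 stood in 82 of 1320 windows of genes higher with disulfiram (6.21%) and in 17 of 583 of genes lower (2.92%). RefSeq lists more than 1 start of CAPN2, and which start was used in these cells was not tested.

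With thalidomide high the differences were smaller. SLC22A31, a member of the organic ion transporter family, was at 15.8, 22.4 and 13.2 TPM with thalidomide, 12.6, 11.7 and 10.1 in control and 5.97, 7.04 and 6.66 with disulfiram (-1.23 ± 0.17, adjusted p = 0.000639). By limma thalidomide lay 0.51 ± 0.17 above control (adjusted p = 0.725) and disulfiram -0.72 from it. DUSP9, a phosphatase of MAP kinases, was at 507, 562 and 486 with thalidomide, 482, 371 and 360.3 in control and 179, 221 and 199.9 with disulfiram, so its first control lay almost at the lowest thalidomide library. HMGB3, a chromatin protein, was at 35.7, 30.5 and 43.4 with thalidomide, 29.4, 29.4 and 22.8 in control and 19.8, 18.6 and 18.4 with disulfiram. TBX2, a T-box repressor, was at 24.1, 24.3 and 23.4 with thalidomide, 22, 20.3 and 18.1 in control and 14.4, 16 and 11.7 with disulfiram, and NDRG2, a stress-responsive tumour suppressor candidate, at 34.5, 38 and 29.9 with thalidomide, 28.8, 29.8 and 24.7 in control and 21, 22.6 and 23.3 with disulfiram. In each of these genes the gap between the nearest control and thalidomide libraries was narrow. FMC1, an assembly factor of the mitochondrial ATP synthase, CMSS1 and PTOV1 differed from control with thalidomide by 0.39, 0.26 and 0.24. Under median-of-ratios scaling DUSP9, FMC1 and PTOV1 did not keep the order, and the other 5 did. As deposited, controls lay between the drugs with disulfiram high in 3 of 25 heat shock and 3 of 24 cytoskeleton genes and in at most 1 gene of every other list. With thalidomide high they did in 2 of 40 secreted liver proteins and in at most 1 gene of every other list.

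**Figure D5:**
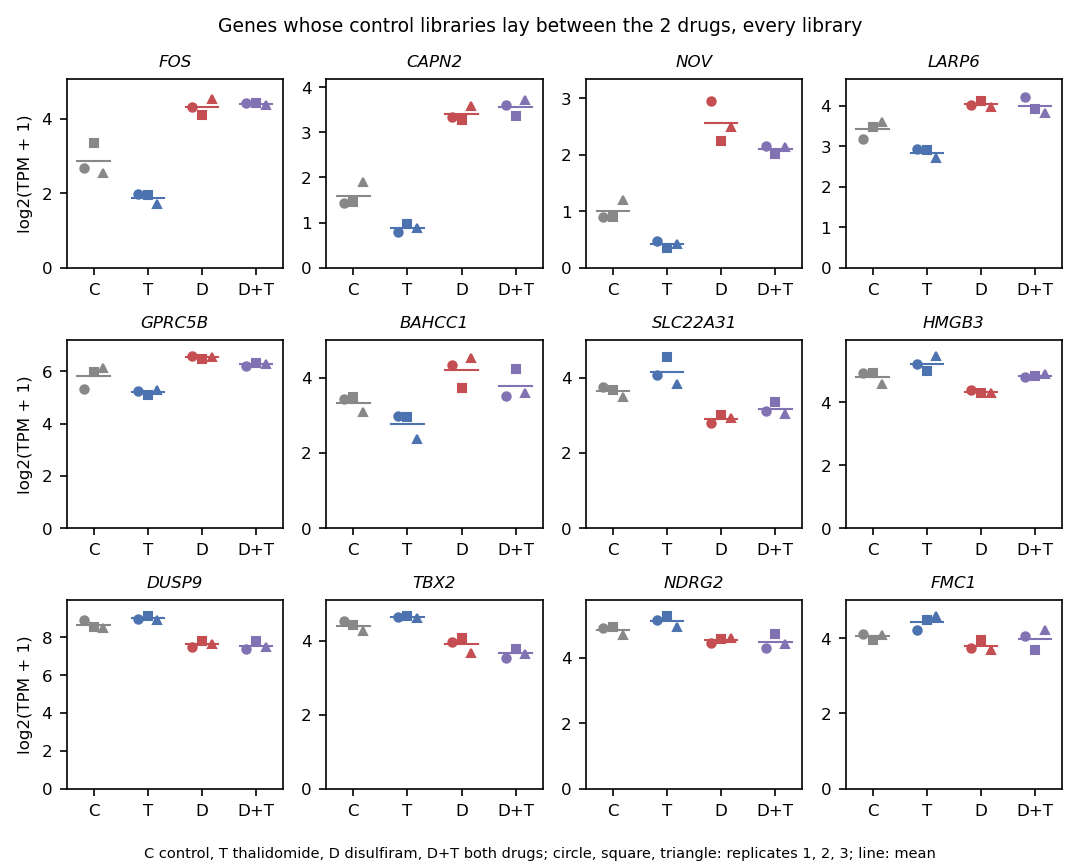
Expression in every library (y axis, log2(TPM + 1)) of 12 genes whose control libraries lay between those of the drugs, by group (x axis), with symbols for replicates 1 to 3 and a line at the mean of 3. In the first 6 panels disulfiram is high, as in FOS (16.2 to 22.1 TPM against 4.86 to 9.19 in control and 2.26 to 2.96 with thalidomide), and in the last 6 thalidomide is high by smaller steps.

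The cytoskeleton list shows both kinds of difference. ACTB and TUBB, the main actin and a beta tubulin, were lower with disulfiram than with thalidomide (-0.93 ± 0.10 and -0.90 ± 0.09). For ACTB the thalidomide libraries, at 4472, 3944 and 4456 TPM, lay just below all 3 controls, at 4533, 5046 and 5185. MYL9, a myosin light chain, was at 19.2, 28.4 and 22 with disulfiram and 7.93, 6.21 and 6.69 with thalidomide (1.60 ± 0.18). FLNA, the actin crosslinker filamin A, was at 595, 790.2 and 671 TPM with disulfiram, 453, 363 and 379.7 with thalidomide and 477, 644 and 682 in control (0.78 ± 0.15, adjusted p = 0.00482). Here the thalidomide libraries lay below all 3 controls and the disulfiram libraries overlapped them (by limma, thalidomide minus control -0.58 ± 0.15, adjusted p = 0.51). Of 24 tested members 7 were higher and 3 lower with disulfiram, with median-of-ratios scaling 4 and 4, and with the GC correction 7 and 5. Over all 14433 genes 12.6% were higher and 5.65% lower as deposited, and with median-of-ratios scaling 972 genes were higher and 1308 lower.

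The combination libraries sat near the disulfiram end of these differences. On a scale where thalidomide is 0 and disulfiram is 1, the median place of the combination over the 2632 genes was 0.888 (0.874 to 0.908 in the 3 combination libraries). Over genes higher with disulfiram it was 0.861, with 1618 of 1817 past the midpoint, and over genes lower it was 0.975, with 715 of 815. Which of these medians was larger depended on the setting. Over the genes called with median-of-ratios scaling they were 0.750 and 1.07. Over those called without the second disulfiram and combination libraries they were 1.05 and 0.9998. Among the genes whose controls lay between the drugs the median place was 0.807 with disulfiram high and 1.03 with thalidomide high. FOS was at 20.4, 20.5 and 19.6 TPM in the combination, level with disulfiram alone, and HAMP at 10.6, 12.2 and 14.2. ZNF692, at 0.358 on this scale, lay nearer to thalidomide. HSP90B1 was at 112, 63.3 and 87.7 TPM in the combination, above all disulfiram libraries and overlapping thalidomide, and IGFL2-AS1 at 3.3, 1.43 and 1.38, on the thalidomide side of the middle. The second disulfiram and second combination libraries share a GC pattern (rho 0.63 and 0.69), and with both left out the median place was 1.03.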

How the data were processed

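RNA from 12 Huh7 libraries was given by the authors as a deposited table of TPM per gene. The tools were HISAT2 2.0 and StringTie 1.3.0 on hg38, per the submitters' processing notes, and the annotation is not given in the sources used here. TPM keeps no read counts, so depth is unknown and no counting interval was computed. Of 59191 features 58611 were named and placed with GENCODE 29 (hg38).

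The 14433 genes that reached TPM 1 in 3 or more single-drug libraries were compared on log2(TPM + 1), which shrinks differences of low genes, with limma 3.58.1 (R 4.3.3, mean-variance trend, all 12 libraries in 1 fit, two-sided moderated tests, Benjamini-Hochberg over all genes tested, threshold 0.05). Of these genes 250 had all libraries of 1 drug below 1 (205 passed through disulfiram and 45 through thalidomide), and so had to differ. The fit was tested on simulated data. The 40 gene lists, 5 marker lists, comparisons and members were chosen with earlier results of these data known. Where a list symbol had 2 entries the more abundant was used.

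Named genes are the 12 largest differences each way (past the threshold, mean TPM of at least 5 in 1 group, libraries not overlapping, plain symbol), up to 8 each way with controls between, up to 4 per list (2 where none passed), and ALDH2, ALDH1A1, NPLOC4, CRBN, ALB, AFP, NID2, ATF4 and HAMP. Exceptions are marked, and 4 genes the rule names are not reported here. Promoter windows come from RefSeq (GRCh38.p14), which matched 9965 tested genes and 123 of 182 named genes. In all, 24 alternatives were run, 2 of them chosen after seeing the data (both drugs detected, and the second disulfiram and combination libraries left out).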

Additional observations from a re-analysis of the deposited data

How the results depend on the processing

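TPM without counts limits what can be said of low genes, and 3 libraries a group limit the rest. Genes called between the drugs numbered 2632, 1665 when the fit held those groups alone, and between 1612 and 2832 with any 1 library left out. With the tested genes limited to those detected with both drugs 2410 were called, and with the second disulfiram and combination libraries left out 3582. Genes with controls between the drugs numbered 257 as deposited, 165 with median-of-ratios scaling and 219 to 667 with 1 library left out, where the order is easier to meet. Disulfiram against control had 2042 calls, 3974 with array weights and 1195 to 2232 with 1 library left out. Thalidomide against control had 0 calls, 1 among genes with a mean TPM of at least 5, 2 with only the compared groups, 1 without the second disulfiram and combination libraries, and 0 to 26 with 1 library left out, the 26 without control library 1. The median place of the combination was 0.888, 0.863 with no filter on low values, 0.929 with median-of-ratios scaling, 0.967 with array weights, 1.03 without the second disulfiram and combination libraries, and 0.836 to 0.930 with 1 library left out. Apart from the order that is easier to meet with fewer libraries, the cause of these moves was not tested. A replicate block gave 2430 calls between the drugs (1678 higher and 752 lower), 249 genes with controls between, 1805 calls for disulfiram and 0 for thalidomide. Same-numbered disulfiram and thalidomide libraries did not deviate together (r -0.17, -0.03 and 0.01), so the numbers give no pairing of those groups. Same-numbered disulfiram and combination libraries had r of 0.25, 0.43 and 0.02, and the cause was not tested. No gene called between the drugs was called in the opposite direction under an alternative. The balance of higher to lower calls turned with median-of-ratios scaling, quantile normalization and the GC correction. Under median-of-ratios scaling the medians of several lists turned, among them NRF2 targets (0.08 to -0.06) and proteasome (0.13 to -0.03). Others were the cereblon (0.09 to -0.04), hepatocyte transcription factor (0.04 to -0.10) and ribosomal protein lists (0.02 to -0.13). With the GC correction the NRF2 median was -0.003.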

Other observations

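Apoptosis regulators were higher with disulfiram in 9 of 24 and lower in 0, with BIK, a pro-apoptotic BH3-only protein, at 20.8, 23.4 and 24.6 TPM with disulfiram and 4.74, 6.49 and 4.89 with thalidomide (1.92 ± 0.19, adjusted p = 7.11e-05 by limma). CASP8 was at 13.3, 10.8 and 19.4 against 5.86, 8.79 and 7.67 TPM (adjusted p = 0.0131) and lost its call without disulfiram library 3 or thalidomide library 1. Apoptosis regulators higher with disulfiram numbered 5 with median-of-ratios scaling, 5 without disulfiram library 1, 3 without disulfiram library 3 and 4 without thalidomide library 1. Of 18 p53 targets 5 were higher as deposited (1 without disulfiram library 3 or thalidomide library 1 or 3, 3 without disulfiram library 1 or control library 3, and 2 without combination library 3 or with the replicate block), and 1 was higher and 1 lower with median-of-ratios scaling. Clustered histones were higher in 6 of 17 and lower in 1 (3 higher without disulfiram library 3 or thalidomide library 1), with HIST2H2AA3 at 79.3, 76.8 and 76.6 against 21.7, 36.5 and 28 TPM (1.43 ± 0.20), although near-identical copies share its reads. Of 26 NRF2 targets 5 were higher and 3 lower, against 12.6% higher and 5.65% lower over all genes. Without disulfiram library 1, 3 were higher, and without the second 8. With median-of-ratios scaling 3 were higher and 5 lower, and with the GC correction 5 and 5. The detoxifying hydrolase EPHX1 was at 166, 174 and 177 against 95.1, 85.2 and 87.6 TPM (0.94 ± 0.09). PGD of the pentose phosphate pathway differed by -0.69.

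Basement membrane and matrix genes divided. COL18A1 was at 26.9, 41.2 and 36.3 TPM with disulfiram and 77.3, 92.4 and 77.8 with thalidomide (-1.24 ± 0.16), COL4A1, tested only through its thalidomide libraries, at 0.58, 0.94 and 0.74 against 3.47, 2.7 and 3.27, and the protease inhibitor TIMP1 at 57.7, 72 and 65.8 against 23, 17.3 and 17.5 (1.71 ± 0.20, adjusted p = 0.000191 by limma), so that 6 of 20 were lower and 4 higher. CYP2R1, which hydroxylates vitamin D, was at 14, 11.7 and 13.8 with disulfiram, 9.83, 10.1 and 9.05 in control and 6.57, 6.65 and 6.56 with thalidomide, with the controls between the drugs. Of 22 tested genes of the TGF-beta list 4 were higher and 2 lower, against 12.6% and 5.65% over all genes. The median was 0.06, and -0.10 with median-of-ratios scaling. Without disulfiram library 3 or thalidomide library 1, 2 were higher. SMAD3 and SNAI1 of this list were higher by 0.77 and 1.04. Of 42 ribosomal protein genes 3 were higher and 1 lower (5 and 2 without the second disulfiram library). Those counts as deposited lie below the shares over all genes, 12.6% higher and 5.65% lower. Of 13 mitochondrially encoded genes 1, MT-CO3, was lower (-0.30, adjusted p = 0.0439 by limma), a call lost when any single-drug library was left out.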
